A study of Homo sapiens with 6 samples.

Results

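A set of 10 guidance receptors of lymphoid cells was followed in RPMI8226 cells, an established human multiple myeloma (MM) line, after exposure to a fragment of the bone marrow matrix protein HAPLN1. It holds the chemokine receptors CXCR5, CXCR4, CXCR3, CCR1, CCR2, CCR6, CCR7 and CCR10, the sphingosine-1-phosphate receptor S1PR1 and the oxysterol receptor GPR183. The 10 genes were chosen by symbol, by matching each symbol to its Ensembl identifier, and are 10 of the 63677 genes listed. Of the 16926 genes with enough reads to be tested, 7 are among these 10. S1PR1, CCR6 and GPR183 were not tested, because their counts were too low.

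All 10 receptors pass through the plasma membrane repeatedly and couple to inhibitory G proteins. Cells that carry them move up a gradient of the matching chemokine or lipid. CXCR5, CCR7 and GPR183 place B cells in follicles and at follicle borders, and CXCR4 holds plasma cells and myeloma cells in the marrow, where stromal cells make its ligand CXCL12. S1PR1 draws lymphocytes out into blood. CCR1, CCR2 and CXCR3 respond to inflammatory chemokines, and CCR6 and CCR10 guide cells to mucosa and skin.

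RNA-Seq was carried out on 6 libraries of RPMI8226 cells labelled as wild type. In 3 of them the cells had been exposed for 6 hr to 100 nM GST-PTR1, the PTR1 domain of HAPLN1 fused to glutathione-S-transferase. In the other 3 they had received 100 nM GST, the fusion partner alone, for the same time. The labels call the 3 of each treatment biological replicates of a single cell line, and both proteins were purified from bacteria. The libraries are named here by the numbers in the deposited table, which are 3, 4 and 5 for GST and 2, 4 and 5 for GST-PTR1.

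The libraries held between 15202503 and 44688737 counts, so that 3 counts were worth between 0.0761 and 0.18 CPM (counts scaled to library size), and 3 counts or fewer were taken as at the limit of detection. Levels are given in RPKM (reads per kilobase of exon, scaled to library size), with totals scaled by the TMM method of edgeR. Over all genes tested, 1549 rose with GST-PTR1 (9.15%) and 1937 fell (11.4%), with 0.05 as the threshold on the adjusted p. Scaled by the plain library totals, the split became 927 higher and 3788 lower, and the log2 fold change at the median gene moved from 0.01 to -0.19. Of 10 plasma cell markers 9 were tested, with summed levels of 1897 to 2226 RPKM with GST and 1758 to 2321 RPKM with GST-PTR1, while CD27 had 1 count in all. Of the 9 tested, 3 were higher and 3 lower, beside 9.15% and 11.4% of all genes tested. By at least 2-fold, 2 were higher and 2 lower, beside 3.68% and 3.85%. These opposite changes do not show in the sum. Of the markers of other cell types, 5 of 8 B cell, 4 of 8 T cell, 1 of 6 NK cell, 2 of 8 myeloid and 0 of 7 stromal markers had enough counts to be tested. Among the rest, CD22 had 3 counts in all libraries together, CD3E 3 and LYZ 1, and CD2, NCR1, PRF1, MPO, COL1A2, COL3A1, DCN and LUM had 0. The summed levels of the 8 B cell markers were 85.7 to 90.8 RPKM with GST and 61.4 to 72.3 RPKM with GST-PTR1, mainly from CR2 and BLK. Those of the 8 T cell markers were 231 to 236 and 204 to 268 RPKM, mainly from CD8B and CD28. Those of the 6 NK cell markers were 4.69 to 6.50 and 3.05 to 4.19 RPKM, mainly from NCAM1, and those of the 7 stromal markers 0.0245 to 0.0546 and 0.0598 to 0.0797 RPKM. The 8 myeloid markers were higher with GST-PTR1, from 3.38 to 6.32 RPKM up to 9.33 to 20.2 RPKM, mainly through S100A9. The B cell and NK cell sums were lower with GST-PTR1 and the low stromal sum higher, each without overlap between treatments. The part of these lists in the receptor results was not tested.

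GST-PTR1 changed which homing receptor messages the myeloma cells carried. CXCR5 went from a minor message to the most abundant of the 10, and CCR7 rose from near the limit of detection to a low level. CCR1 and CCR2, both already present, rose by less. With TMM-scaled totals, CXCR4 was higher in every GST-PTR1 library than in any GST library, but it did not pass the test. On plain library totals its treatments overlapped. CXCR3 and CCR10 overlapped between treatments, and S1PR1, CCR6 and GPR183 stayed at a few counts. By edgeR's quasi-likelihood test, 4 of the 7 receptors tested were higher, against 9.15% of all genes tested, and 0 were lower, against 11.4%. A change of at least 2-fold was seen for 2 of them, CXCR5 and CCR7, against 3.68% of all genes tested, and 0 were lower by that much, against 3.85%. For 5 of the 7 tested, CXCR4 among them, all GST-PTR1 libraries lay above all GST libraries with TMM-scaled totals. This held for 19.2% of all genes tested. By the same measure 0 of the 7 lay wholly lower, against 21.2%. The median log2 fold change of the 7 tested was 0.53, beside 0.01 over all genes tested. CCR7 passed the filter on low counts through its GST-PTR1 libraries. The counts of 4, 2 and 5 among the 7 tested, and the median of 0.53, are therefore a description. In these bulk libraries, more cells with a message and more message per cell cannot be told apart.

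**Figure D1:**
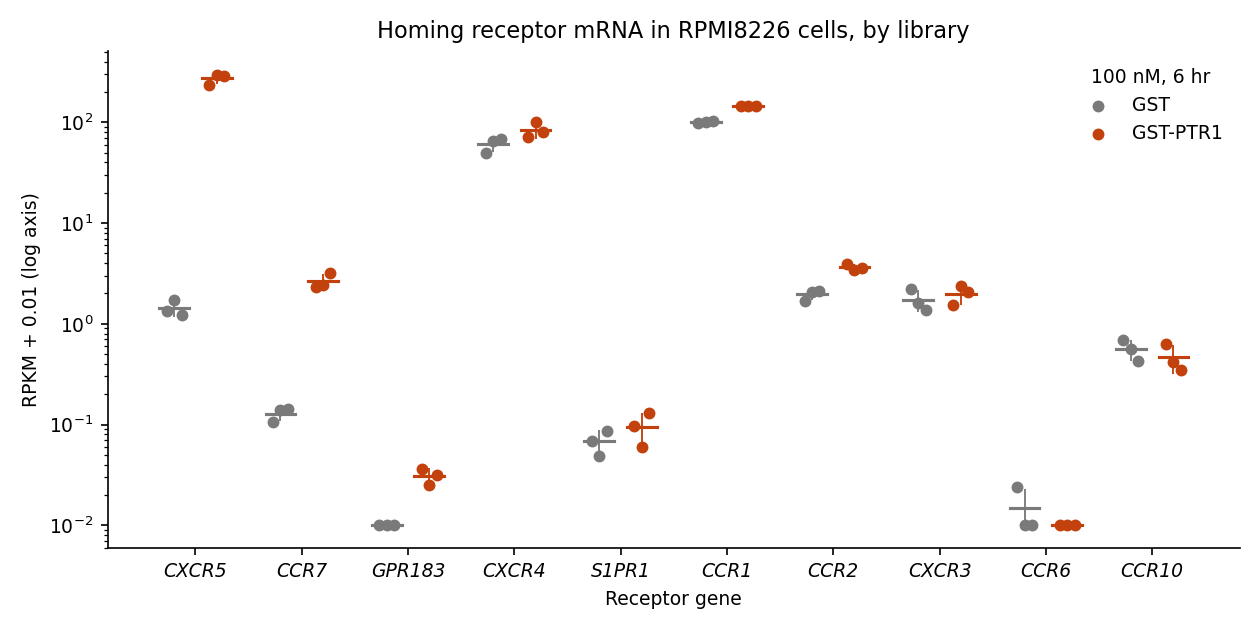
RPKM of each receptor gene in each library, on a log axis after adding 0.01, with GST in gray and GST-PTR1 in orange. Points are the 3 libraries of a treatment, horizontal lines their mean and vertical lines the SD; the GST-PTR1 points of CXCR5 (237 to 294 RPKM) and CCR7 (2.32 to 3.21 RPKM) lie far above their GST points, and those of CCR1 and CCR2 lie above theirs by less.

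Upstream sequence was examined for the receptors whose messages rose. The windows shown are the 250 bases before a transcription start in RefSeq (build GRCh38.p14), each read 5' to 3' on the gene's strand. RefSeq windows were matched for 8 of the 10 receptors, 12 windows in all, and CCR7 and CCR10 were not among them. Where a receptor had several windows, the first listed is shown. Which start the messages came from was not tested, so a window need not lie at the start in use. The gene spans given below are in GRCh37, so these positions cannot be set directly beside them. Capitals mark motif letters found on either strand, which are GGGCGG (GC box) for CXCR5, TTCNNNGAA (the core of STAT sites) for CCR1 and TGANTCA (an AP-1 site) for CCR2. CXCR5, at chr11:118893142-118893391 on the plus strand, is shown because its message rose the most. CCR1, at chr3:46208314-46208563 on the minus strand, and CCR2, at chr3:46353861-46354110 on the plus strand, are shown as the matched receptors with smaller rises.
CXCR5: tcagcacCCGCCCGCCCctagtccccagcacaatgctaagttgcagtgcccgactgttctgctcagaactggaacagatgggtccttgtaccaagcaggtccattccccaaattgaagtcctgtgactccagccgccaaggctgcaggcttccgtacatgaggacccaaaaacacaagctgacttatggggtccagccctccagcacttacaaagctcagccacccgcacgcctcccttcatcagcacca
CCR1: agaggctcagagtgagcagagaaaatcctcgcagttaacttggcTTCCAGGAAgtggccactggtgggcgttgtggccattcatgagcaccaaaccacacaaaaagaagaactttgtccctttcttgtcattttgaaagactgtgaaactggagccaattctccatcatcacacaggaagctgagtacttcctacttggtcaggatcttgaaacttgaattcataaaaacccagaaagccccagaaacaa
CCR2: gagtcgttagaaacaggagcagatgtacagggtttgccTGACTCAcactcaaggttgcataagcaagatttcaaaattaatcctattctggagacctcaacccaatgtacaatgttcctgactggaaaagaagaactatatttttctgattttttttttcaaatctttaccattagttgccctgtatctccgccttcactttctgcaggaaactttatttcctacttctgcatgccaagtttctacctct
The CXCR5 window holds a pair of overlapping GC boxes, read on the opposite strand, which start 243 and 239 bases before the start. The letters GGGCGG are in 42.6% of the 35116 windows of RefSeq starts. The STAT core of CCR1 starts 206 bases before the start, and TTCNNNGAA occurs in 6.57% of all windows. The AP-1 letters of CCR2 start 212 bases before the start and are also in 6.57% of all windows. The κB consensus was found in 0 of the 12 receptor windows, against 5.21% of all windows, which says only that these letters are not within these 250 bases. The GC content of the windows was 57.2% for CXCR5, 45.2% for CCR1 and 38.8% for CCR2, with a median of 58.0% over all windows. These matches describe letters, and no binding was measured in these libraries.

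CXCR5 (ENSG00000160683), the follicle receptor for CXCL13, spans chr11:118754475-118768508 on the plus strand in GRCh37. Its counts were 99, 190 and 114 in GST libraries 3, 4 and 5. With GST-PTR1 they were 23393, 51411 and 35299 in libraries 2, 4 and 5. Every GST-PTR1 library stood far above every GST library. Per length, CXCR5 measured 1.34, 1.72 and 1.22 RPKM with GST and 237, 294 and 292 RPKM with GST-PTR1. The mean went from 1.43 ± 0.261 to 274 ± 32.4 RPKM (SD, n = 3), a fold of 191 (95% interval 143 to 256). The log2 fold change was 7.58 (SE 0.19, adjusted p = 1.45e-09 by edgeR), and 10 of the 16926 genes tested had a higher one. Among all genes tested, the level of CXCR5 moved from the 26.7th percentile to the 98.8th, where it ranked 211 by RPKM.

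A large part of CXCR5's exons lies under another gene on the opposite strand. BCL9L, which encodes a Wnt pathway co-activator, shares 88.6% of the CXCR5 exon bases (3925 bases). The reads were counted by strand. BCL9L had 881, 1024 and 800 counts with GST and 1809, 2846 and 2386 with GST-PTR1. It had more counts than CXCR5 with GST (99, 190 and 114 for CXCR5) and far fewer in the treated libraries. Whether wrong-strand reads of either gene were counted for the other was not tested. The low GST counts of CXCR5 and the change in BCL9L are given with that limit. BCL9L measured 4.19 ± 0.755 RPKM with GST and 7.64 ± 0.728 RPKM with GST-PTR1 (SD, n = 3; log2 fold change 0.87, SE 0.14, adjusted p = 0.00122 by edgeR). On the other side, 92617 bases away, the RNA helicase gene DDX6 had a log2 fold change of 0.56 (SE 0.12, adjusted p = 0.00749 by edgeR). With plain library totals, DDX6 did not pass the test (0.37, adjusted p = 0.0614 by edgeR). The log2 fold change of CXCR5 was larger than that of either gene, with 95% intervals that did not overlap.

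CCR7 (ENSG00000126353), which guides B and T cells into lymph nodes along CCL19 and CCL21, spans chr17:38710021-38721724 on the minus strand in GRCh37. It had 4, 8 and 7 counts in GST libraries 3, 4 and 5. In GST-PTR1 libraries 2, 4 and 5 it had 130, 239 and 220 counts. The 3 GST-PTR1 libraries were all higher, without overlap. Its level went from 0.0958, 0.128 and 0.132 RPKM to 2.32, 2.42 and 3.21 RPKM, a mean of 0.119 ± 0.0199 against 2.65 ± 0.487 RPKM (SD, n = 3). The fold was 21.7 (95% interval 14.4 to 32.6), with a log2 fold change of 4.44 (SE 0.27, adjusted p = 7.78e-07 by edgeR). In rank of log2 fold change, CCR7 was at 78 from the top of the genes tested. Its level with GST-PTR1 was still about that of CXCR3.

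The nearest tested genes around CCR7 behaved unlike each other. IGFBP4, which encodes a binding protein of insulin-like growth factors, lies 96038 bases to the lower side and rose from 1.20 ± 0.0661 to 13.9 ± 1.96 RPKM (SD, n = 3; log2 fold change 3.53, SE 0.16, adjusted p = 7.55e-08 by edgeR). SMARCE1, a chromatin remodeling subunit gene 59490 bases to the higher side, measured 3.64 ± 0.188 and 3.83 ± 0.0590 RPKM and did not pass the test (log2 fold change 0.08, adjusted p = 0.623 by edgeR; with plain library totals -0.12).

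GPR183 (ENSG00000169508), the receptor for 7α,25-dihydroxycholesterol that positions B cells at follicle borders, spans chr13:99946784-99959659 on the minus strand in GRCh37. It had 0 counts in the 3 GST libraries and 1 count in each of the 3 GST-PTR1 libraries. Both treatments were at or under the limit of 3 counts per library, so no fold is given and a change was not detectable at this depth. The gene lies inside UBAC2, on the opposite strand, whose level was 6.78 ± 1.12 RPKM with GST and 7.16 ± 0.426 RPKM with GST-PTR1 (SD, n = 3). UBAC2 did not pass the test (log2 fold change 0.08, adjusted p = 0.718 by edgeR), and its sign turned with plain library totals (-0.12) and without GST library 3 (-0.053).

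CXCR4 (ENSG00000121966), the CXCL12 receptor of marrow retention, spans chr2:136871919-136875735 on the minus strand in GRCh37. It was abundant in both treatments, with 1834, 3600 and 3246 counts with GST and 3579, 8922 and 4829 counts with GST-PTR1. Its levels were 49.5, 64.9 and 69.1 RPKM in GST libraries 3, 4 and 5 and 72.2, 102 and 79.5 RPKM in GST-PTR1 libraries 2, 4 and 5. On this scale the GST-PTR1 libraries all lay above the GST libraries, but GST-PTR1 library 2 and GST library 5 were close. On plain library totals, GST-PTR1 library 2 lay below GST library 5, so the treatments overlapped. Means were 61.2 ± 10.3 and 84.4 ± 15.4 RPKM (SD, n = 3), and the fold was 1.38 (95% interval 1.09 to 1.75). The log2 fold change of 0.47 (SE 0.16) did not pass the threshold after adjustment (adjusted p = 0.0568 by edgeR). The call rested on the setting, since CXCR4 passed with DESeq2 (0.47, adjusted p = 0.0293), with the looser filter of 1 count in any library in edgeR (0.50, adjusted p = 0.00114) and without GST-PTR1 library 2 in edgeR (0.57, adjusted p = 0.0314). With plain library totals it was 0.26 (adjusted p = 0.172 by edgeR).

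S1PR1 (ENSG00000170989), the sphingosine-1-phosphate receptor of lymphocyte egress, spans chr1:101702444-101707074 on the plus strand in GRCh37. It had 3, 3 and 5 counts with GST and 6, 6 and 10 counts with GST-PTR1. On the length scale these were 0.0587, 0.0392 and 0.0771 RPKM with GST and 0.0876, 0.0495 and 0.119 RPKM with GST-PTR1. The treatments overlapped, since GST-PTR1 library 4 lay below GST libraries 3 and 5. S1PR1 was too low to be tested, and CXCR4 was the abundant message of this pair in both treatments.

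CCR1 (ENSG00000163823), a receptor for inflammatory chemokines such as CCL3 and CCL5 and known in myeloma for its part in bone disease, spans chr3:46243200-46249887 on the minus strand in GRCh37. It had 4507, 6858 and 5885 counts with GST and 8833, 15790 and 10790 counts with GST-PTR1. Its levels were tight within each treatment, at 99.1, 100.6 and 102.0 RPKM with GST and 145, 147 and 145 RPKM with GST-PTR1. The treatments did not overlap, and the gap between them was far wider than the spread within either. Means were 100.6 ± 1.45 and 145 ± 1.03 RPKM (SD, n = 3), with a fold of 1.45 (95% interval 1.25 to 1.67) and a log2 fold change of 0.53 (SE 0.10, adjusted p = 0.00284 by edgeR). With plain library totals the log2 fold change was 0.34 (adjusted p = 0.0299 by edgeR). CCR1 was the most abundant of the 10 receptors with GST. The gene lies inside the span of CCR3, on the opposite strand.

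CCR2 (ENSG00000121807), the CCL2 receptor, spans chr3:46395225-46402419 on the plus strand in GRCh37. Its counts were 104, 193 and 166 with GST and 325, 506 and 363 with GST-PTR1. Its levels were 1.67, 2.07 and 2.10 RPKM with GST and 3.90, 3.44 and 3.56 RPKM with GST-PTR1. All GST-PTR1 libraries were above all GST libraries. Means were 1.95 ± 0.241 and 3.63 ± 0.243 RPKM (SD, n = 3), with a fold of 1.85 (95% interval 1.49 to 2.30) and a log2 fold change of 0.89 (SE 0.14, adjusted p = 0.00127 by edgeR). CCR2 thus rose, at a level far below that of CCR1.

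CXCR3 (ENSG00000186810), the receptor for the interferon-induced chemokines CXCL9, CXCL10 and CXCL11, spans chrX:70835766-70838367 on the minus strand in GRCh37. It had 68, 74 and 54 counts with GST and 63, 173 and 104 counts with GST-PTR1. Its levels of 2.19, 1.59 and 1.37 RPKM with GST overlapped those of 1.51, 2.35 and 2.04 RPKM with GST-PTR1. Means were 1.71 ± 0.423 and 1.97 ± 0.422 RPKM (SD, n = 3). The log2 fold change of 0.23 (SE 0.23, adjusted p = 0.517 by edgeR) did not pass, and the interval of the fold, 0.82 to 1.67, holds changes in either direction.

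CCR6 (ENSG00000112486), the CCL20 receptor of mucosal homing, spans chr6:167525295-167553184 on the plus strand in GRCh37. It had 1 count in GST library 3 and 0 in the other 5 libraries. Of its exon bases, 71.2% (3008 of 4226) also belong to ENSG00000272980 on the same strand, and reads there were left out of the counts. That gene had 4, 3 and 4 counts with GST and 5, 6 and 6 counts with GST-PTR1, so few reads fell on either gene alone. A change in CCR6 was not detectable at this depth and with this way of counting.

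CCR10 (ENSG00000184451), the receptor for the epithelial chemokines CCL27 and CCL28 that is carried by many IgA plasma cells, spans chr17:40830907-40835935 on the minus strand in GRCh37. It had 30, 36 and 23 counts with GST and 36, 42 and 24 counts with GST-PTR1. Its levels were 0.688, 0.551 and 0.416 RPKM with GST and 0.616, 0.406 and 0.335 RPKM with GST-PTR1, and the treatments overlapped. Means were 0.551 ± 0.136 and 0.453 ± 0.146 RPKM (SD, n = 3). The log2 fold change was -0.29 (SE 0.30, adjusted p = 0.509 by edgeR), with a fold interval of 0.518 to 1.28. Exons of the opposite strand cover 31.3% of its exon bases, and CNTNAP1, one of the genes there, was lower with GST-PTR1 (log2 fold change -0.96, SE 0.22, adjusted p = 0.0109 by edgeR).

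**Figure D2:**
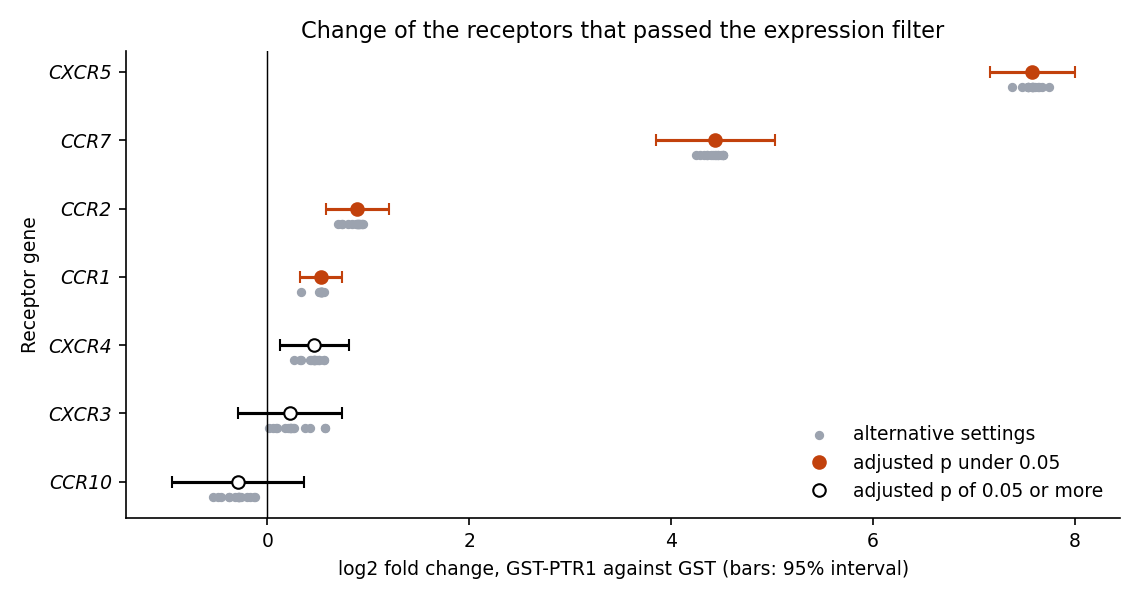
Log2 fold change of the 7 receptors that could be tested, GST-PTR1 against GST, with 95% intervals from edgeR. Orange points passed at an adjusted p under 0.05 and open points did not; gray points below each are the values under the alternative settings, which stay between 7.38 and 7.75 for CXCR5 and between 4.25 and 4.52 for CCR7.

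The order of the receptors changed between treatments. With GST, the levels ran from CCR1 through CXCR4, CCR2, CXCR3, CXCR5, CCR10, CCR7 and S1PR1 to CCR6 and GPR183. CCR2 and CXCR3 overlapped in their libraries, as did CXCR3 and CXCR5, and CCR6 and GPR183, and the other neighbors in this order did not. With GST-PTR1, the order was CXCR5, CCR1, CXCR4, CCR2, CCR7, CXCR3, CCR10, S1PR1, GPR183 and CCR6. Here CCR7 and CXCR3 were the overlapping neighbors. In both orders the genes at the end are separated by a few counts. The place of CCR6 rests on reads of its unshared exon bases only.

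CXCR5 also came to dominate the sum of the 10 messages. The summed level was 154.6, 171.6 and 176.4 RPKM with GST and 462.5, 551.1 and 525.0 RPKM with GST-PTR1. Means were 167.5 ± 11.4 and 512.8 ± 45.5 RPKM (SD, n = 3). CXCR5 made up 0.867, 1.00 and 0.690% of that sum with GST and 51.2, 53.4 and 55.5% with GST-PTR1. Without CXCR5, the sum was 166.1 ± 11.4 RPKM with GST and 238.7 ± 16.3 RPKM with GST-PTR1. The share of CCR1 went from 60.2 ± 3.39% to 28.5 ± 2.52% and that of CXCR4 from 36.3 ± 3.80% to 16.4 ± 1.79% (SD, n = 3), although neither message was lower in RPKM. No test was made of these shares.

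**Figure D3:**
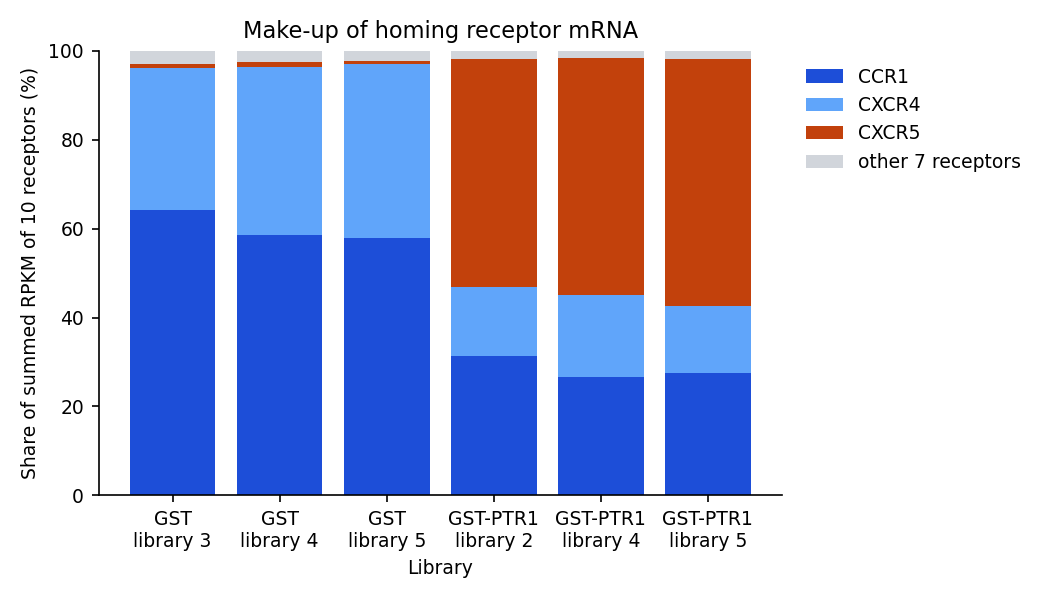
Share of each receptor in the summed RPKM of the 10 receptors, in percent, for each of the 6 libraries as stacked bars from 0 to 100%. CCR1 and CXCR4 fill nearly all of the GST bars, and CXCR5 fills between 51.2 and 55.5% of the GST-PTR1 bars.

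The chemokine ligands of these receptors were examined next, with 20 genes listed and 14 matched. Of the 14, 7 were tested, and all 7 were higher with GST-PTR1 by at least 2-fold, beside 9.15% and 3.68% of all genes tested; 0 were lower. CCL8 and CCL19 passed the filter through their GST-PTR1 libraries, so the 7 of 7 is a description. The median log2 fold change of the 7 was 4.79, or 3.70 with CCL19 placed at its lower bound. Of the 7 not tested, CCL21 and CCL27 had 0 counts in all libraries.

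Of the CXCR3 ligands, which interferon is known to induce, CXCL10 and CXCL9 had the highest levels of all tested ligands with GST-PTR1. CXCL10 measured 137, 307 and 277 RPKM with GST and 5337, 9581 and 7139 RPKM with GST-PTR1 (log2 fold change 4.93, SE 0.33, adjusted p = 1.99e-06 by edgeR). CXCL9 went from 49.5 ± 13.9 to 1372 ± 452.9 RPKM (4.79, SE 0.30, adjusted p = 1.21e-06 by edgeR) and CXCL11 from 1.67 ± 0.673 to 82.4 ± 26.4 RPKM (5.58, SE 0.31, adjusted p = 3.92e-07 by edgeR; SD, n = 3). Their receptor CXCR3 did not pass its test in these libraries.

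Of the CCR2 ligands, CCL2 and CCL8 were tested and rose, and CCL7 and CCL13 were too low to be tested. CCL2, the monocyte attractant that binds CCR2, measured 3.54, 5.96 and 5.41 RPKM with GST and 51.8, 75.7 and 52.3 RPKM with GST-PTR1 (log2 fold change 3.58, SE 0.21, adjusted p = 7.18e-07 by edgeR). CCL8, which also binds CCR2, had 2, 3 and 4 counts with GST and 24, 77 and 25 with GST-PTR1 (3.19, SE 0.47, adjusted p = 0.000775 by edgeR). CCL2 and CCR2 were thus both higher in the same libraries.

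Ligands of the lymphoid receptors were present at very different levels. CXCL12, named here after its values were seen, measured 63.1, 71.9 and 72.0 RPKM with GST and 112, 150 and 159 RPKM with GST-PTR1 (log2 fold change 1.03, SE 0.14, adjusted p = 0.000544 by edgeR). CCL19, a CCR7 ligand, had 0, 0 and 3 counts with GST and 35, 86 and 55 with GST-PTR1, at least 13.0-fold higher against the limit of 3 counts per library (adjusted p = 9.76e-05 by edgeR). CXCL13, the CXCR5 ligand, also named after its values were seen, had 0, 1 and 0 counts with GST and 4, 13 and 5 with GST-PTR1 and was not tested. The libraries of CXCL13 did not overlap, but its level with GST-PTR1 was 0.161 ± 0.0599 RPKM (SD, n = 3), far below that of CXCR5.

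**Figure D4:**
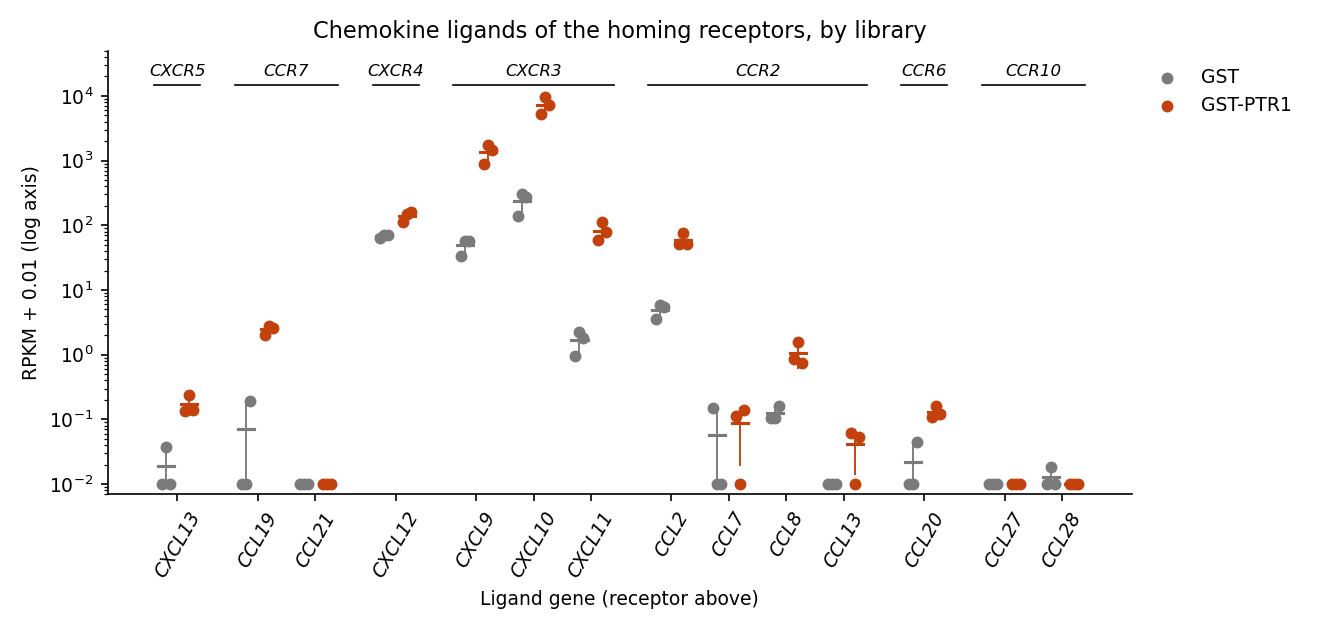
RPKM of the chemokine ligands in each library, on a log axis after adding 0.01, grouped under the receptor each binds, with GST in gray and GST-PTR1 in orange. Points are libraries, horizontal lines means and vertical lines SDs; CXCL10 and CXCL9 reach the highest GST-PTR1 levels (7352 and 1372 RPKM on average), and CXCL13, CCL20, CCL27 and CCL28 lie near the bottom.

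The other chemokine receptors did not rise together. Of 17 matched, 4 were tested, 0 were higher and 1 was lower, beside 9.15% and 11.4% of all genes tested, with a median log2 fold change of -0.06. The one that fell was CX3CR1, the receptor for the membrane-bound chemokine CX3CL1, at 152, 145 and 157 RPKM with GST and 72.0, 104 and 105 RPKM with GST-PTR1. All GST-PTR1 libraries were below all GST libraries (log2 fold change -0.69, SE 0.15, adjusted p = 0.00719 by edgeR). CCR3, the eotaxin receptor around CCR1, measured 3.90 ± 0.297 and 5.14 ± 0.640 RPKM (SD, n = 3; log2 fold change 0.40, SE 0.13, adjusted p = 0.0532 by edgeR). It passed with DESeq2's size factors in edgeR (0.41, adjusted p = 0.0487), with DESeq2 (0.41, adjusted p = 0.0390) and with at least 1 count in any library in edgeR (0.43, adjusted p = 0.0300).

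Other receptors for lipid signals moved in both directions. Of 33 matched, 11 were tested, 4 were higher and 4 lower, beside 9.15% and 11.4% of all genes tested, with a median log2 fold change of 0.15. All 4 that rose did so by at least 2-fold, and 1 of those that fell. PTGIR and CNR1 passed the filter on low counts through their GST-PTR1 libraries and PTGDR2 through its GST libraries, so these counts are a description, and with at least 10 counts in every library 2 were higher. PTGER4, a prostaglandin E2 receptor, went from 0.248 ± 0.0490 to 3.70 ± 0.364 RPKM (SD, n = 3; log2 fold change 3.87, SE 0.19, adjusted p = 1.83e-07 by edgeR). GPR132, a receptor for oxidized fatty acids and lysophospholipids, went from 0.752 ± 0.124 to 4.55 ± 0.273 RPKM (2.61, SE 0.15, adjusted p = 7.04e-07 by edgeR). The prostacyclin receptor gene PTGIR had 4, 8 and 2 counts with GST and 21, 43 and 35 with GST-PTR1 (2.29, SE 0.39, adjusted p = 0.00190 by edgeR).

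The cannabinoid receptor gene CNR1 was called on few counts, 4, 7 and 7 against 12, 34 and 18 (log2 fold change 1.28, SE 0.36, adjusted p = 0.0270 by edgeR). It lost the call with DESeq2 (adjusted p = 0.0886) and without any library other than GST-PTR1 library 2, with adjusted p between 0.0531 (without GST library 5) and 0.126 (without GST-PTR1 library 4) in edgeR. PTGDR2, a prostaglandin D2 receptor, fell from 49, 48 and 29 counts to 6, 7 and 8 (log2 fold change -3.08, SE 0.38, adjusted p = 0.000220 by edgeR). The number of lower genes in this list was 1 without GST library 4 and 2 without GST-PTR1 library 4 or 5, against 4 with all libraries.

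Genes that make, move or destroy the lipid ligands of S1PR1 and GPR183 were called in both directions. Of 14 matched, 10 were tested, 3 were higher and 3 lower, beside 9.15% and 11.4% of all genes tested, with a median log2 fold change of -0.32. SPHK1, a kinase that makes sphingosine-1-phosphate, measured 1.12, 0.989 and 0.772 RPKM with GST and 2.24, 2.53 and 2.46 RPKM with GST-PTR1 (log2 fold change 1.34, SE 0.17, adjusted p = 0.000226 by edgeR). SGPP2, a phosphatase that removes it, had 0 counts in the 3 GST libraries and 24, 57 and 45 with GST-PTR1, at least 9.42-fold higher against the limit of 3 counts per library (adjusted p = 0.000102 by edgeR). CH25H, the enzyme at the start of oxysterol ligand synthesis for GPR183, had 2, 6 and 4 counts with GST and 20, 33 and 15 with GST-PTR1 (1.97, SE 0.40, adjusted p = 0.00578 by edgeR).

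SPNS2, the sphingosine-1-phosphate exporter, had 8, 14 and 11 counts with GST and 5 in each GST-PTR1 library (log2 fold change -1.60, SE 0.39, adjusted p = 0.0145 by edgeR). It lost the call with DESeq2 (adjusted p = 0.0650), without GST library 4 (adjusted p = 0.0606) and without GST-PTR1 library 4 (adjusted p = 0.0851), the last pair in edgeR. The number of lower genes in this list was 1 without either of those libraries, against 3. SGPP2 and CH25H passed the filter through their GST-PTR1 libraries and SPNS2 through its GST libraries, so the counts of this list are a description. With at least 10 counts in every library, 1 gene of the list was higher.

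Genes that carry or dampen the receptors' signal were mostly not called. Of 24 matched, 20 were tested, 4 were higher and 2 lower, beside 9.15% and 11.4% of all genes tested, with a median log2 fold change of -0.10. CD69 passed the filter on low counts through its GST-PTR1 libraries, so the count of 4 is a description. CD69, a membrane protein that binds S1PR1 and draws it inside the cell, had 6, 16 and 12 counts with GST and 223, 639 and 257 with GST-PTR1. Its level rose from 0.185 ± 0.0515 to 4.19 ± 1.33 RPKM (SD, n = 3; log2 fold change 4.46, SE 0.30, adjusted p = 2.06e-06 by edgeR). CD69 thus rose beside an S1PR1 of a few counts.

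Among the RGS genes, whose products shorten G protein signals, RGS16 and RGS1 rose and RGS14 fell by at least 2-fold, RGS2 was higher by less (0.82, adjusted p = 0.0348 by edgeR), and RGS3 had a log2 fold change of -1.32 and did not pass (adjusted p = 0.0627 by edgeR). RGS2 and RGS3 were named after their values were seen. RGS16 measured 14.5, 13.6 and 12.1 RPKM with GST and 69.4, 74.9 and 69.9 RPKM with GST-PTR1 (log2 fold change 2.41, SE 0.11, adjusted p = 8.82e-08 by edgeR). RGS1, known to damp chemokine responses of B cells, went from 0.245 ± 0.0951 to 1.75 ± 0.423 RPKM (2.86, SE 0.29, adjusted p = 4.91e-05 by edgeR). RGS14 fell from 15.3 ± 1.87 to 7.14 ± 1.53 RPKM (-1.10, SE 0.16, adjusted p = 0.000605 by edgeR; SD, n = 3). The number of lower genes in this list was 4 without GST library 5, against 2.

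**Figure D5:**
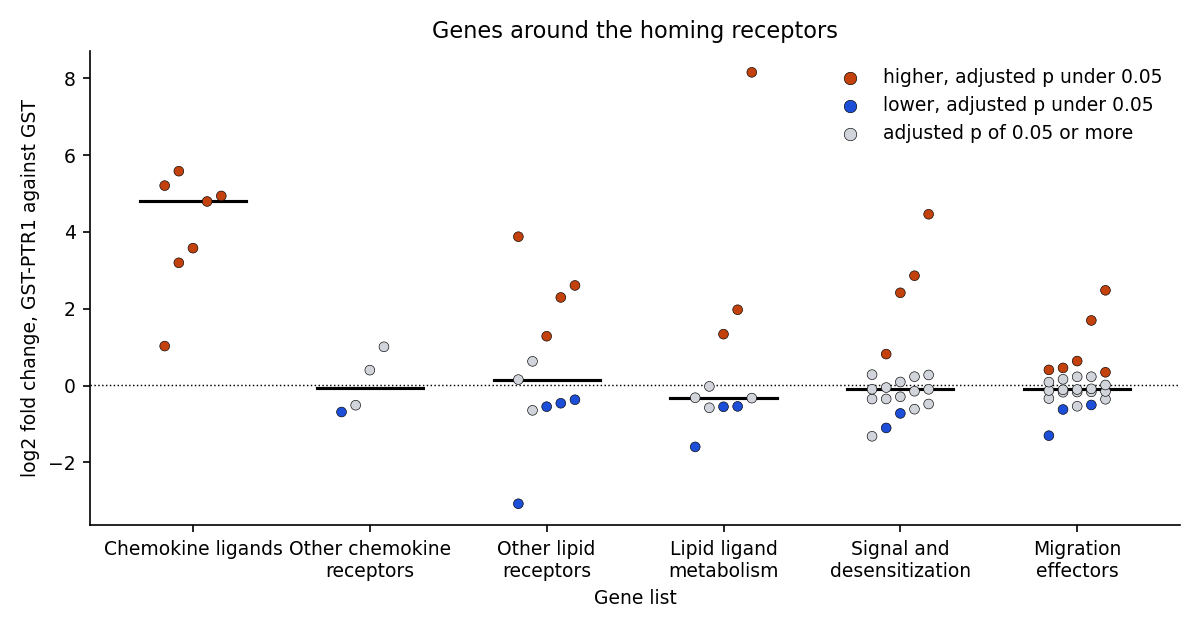
Log2 fold change of each tested gene of 6 lists, GST-PTR1 against GST, colored by edgeR's call, with the list median as a black line and the median of all genes tested as a dotted line. The tested chemokine ligands all lie above the dotted line, the lowest being CXCL12 at 1.03, the other lists straddle 0, and the highest point, SGPP2, is a fitted value against 0 counts.

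The genes nearest to each receptor in log2 CPM across the 6 libraries are given as a description, since the libraries fall into 2 treatments. For CXCR5 these were CXCL8, a neutrophil chemokine, at a Euclidean distance of 4.12, CHI3L1, a chitinase-like secreted protein, at 4.46, and BIRC3, an inhibitor of apoptosis, at 4.52. CXCL8 went from 1.30 ± 0.418 to 133 ± 40.3 RPKM, CHI3L1 from 6.66 ± 1.27 to 102.9 ± 3.06 RPKM and BIRC3 from 3.51 ± 0.389 to 53.4 ± 1.18 RPKM (SD, n = 3). None was close to CXCR5, whose nearest gene was farther away than that of any other tested receptor. The nearest gene of CCR7 was the integrin gene ITGB8 at 0.931, that of CCR10 was ECM1 at 0.346, and that of CCR2 was the glycerol kinase gene GK at 0.311. CCR1 lay nearest to IRF4, a plasma cell transcription factor, at 0.247, CXCR4 to the translation factor gene EIF3M at 0.161 and CXCR3 to the pseudogene RPS27P8 at 0.383.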

How the data were processed

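RNA was measured in 6 libraries of RPMI8226 cells, 3 exposed to GST-PTR1 and 3 to GST. The values deposited by the authors are raw counts for each gene. They came from featureCounts 1.5.0-p1, run by strand with Ensembl release 75 gene models (GRCh37). Multi-mapping reads, and reads on exons of several genes of 1 strand, were not counted. The aligner is not given in the sources used here. The deposited table also lists exon lengths, and 0 of its columns of values were left unused. Libraries were assigned to treatments from column names. Identifiers were matched to symbols for 52181 genes.

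These counts were compared between treatments by edgeR 4.0.16 under R 4.3.3 (TMM factors, filterByExpr, glmQLFit, glmQLFTest) over the 16926 genes tested, with Benjamini-Hochberg adjustment, an adjusted p under 0.05 as threshold and intervals of 95%. P-values measure the spread between these libraries of 1 line. RPKM was computed from counts, TMM-scaled totals and exon lengths. The smallest chi-square per gene within a treatment, on plain library totals, was 7.66, more than repeat reads of the same library would give. This cannot tell separate cultures from separate preparations of the same culture. The 6 libraries were counted separately on the labels' word that they are biological replicates. Limits of 3 counts cover counting error only. The receptors and gene lists were chosen with earlier results of these data known. Named were the 10 receptors, of each other list at most the 6 largest changes in each direction at an adjusted p under 0.05 and 2-fold (where none passed, the 2 with the highest RPKM), the nearest tested genes beside receptors called at 2-fold, and the genes nearest in log2 CPM (prior count 2), 3 for CXCR5 and 1 for each other tested receptor. CXCL12, CXCL13, marker genes and overlapping genes were named after their values were seen. The values of 1 marker gene are not reported here. Of 192 listed genes, 186 were matched, and the CCR1 ligands CCL3, CCL5, CCL14, CCL15, CCL16 and CCL23 were not. Alternatives were DESeq2 1.42.0, limma 3.58.1 (voom), other size factors, library totals, filters of at least 1 count in any or 10 in every library, thinned counts, a test against a fold change of 2, and leaving out each library. The tests were tried first on simulated data. Tables used pandas 2.3.3 under Python 3.11.15, and plots used matplotlib 3.10.9.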

Additional observations from a re-analysis of the deposited data

How the results depend on the processing

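Of 311 alternative values of 21 fold changes and counts, 278 kept their direction and side of the threshold (for counts, a value within 1.5 times), as did 78 of 80 RPKM alternatives and 514 of 546 for the 40 genes named outside the receptors, which were added after seeing the data. CXCR4 passed with DESeq2 (log2 fold change 0.47) and with at least 1 count in any library (0.50). Its values without 1 library ran from 0.32 to 0.57. In the test against a fold change of 2, CCR1 (0.53) and CCR2 (0.89) did not pass, which left 2 receptors higher. That test left 0 other chemokine receptors lower, 1 other lipid receptor lower, 1 lipid metabolism gene higher and 0 lower, 0 signal genes lower, and 2 migration effectors higher and 0 lower. Other chemokine receptors higher numbered 1 with DESeq2's size factors, 1 with DESeq2 and 2 with at least 1 count in any library. Other lipid receptors higher numbered 2 with at least 10 counts in every library and 2 with thinned counts, and those lower 1 to 3 without 1 library. Lipid metabolism genes higher numbered 1 with at least 10 counts in every library, and those lower 5 with library totals and 1 to 4 without 1 library. Signal genes lower numbered 6 with library totals and 2 to 4 without 1 library. Migration effectors higher numbered 3 with library totals and 3 to 5 without 1 library, and those lower 7 with library totals. On library totals, CCR1 measured 107.7 RPKM with GST and 136 RPKM with GST-PTR1. SMARCE1 (-0.12 with library totals) and UBAC2 (-0.12 with library totals, -0.053 to 0.17 without 1 library) turned in sign, and neither passed in any setting. The cause of these shifts was not tested. Over all genes, library totals gave 927 higher and 3788 lower, the test against a fold change of 2 gave 339 and 70, the filter of at least 1 count gave 2608 and 2306, and without GST library 4 edgeR called 1051 and 1237. CCR7 could not be tested with at least 10 counts in every library. With 0 or 1 count in a library, GPR183 and CCR6 limit what depth can show. For CCR6, reads on its shared exon bases were also left out of the counts. The column numbers differ from the samples' own replicate numbers and only 4 and 5 occur in both treatments, so they were not taken to pair the libraries. Correlations of deviations from the treatment means, across 16926 genes, were 0.253 for number 4 and -0.0276 for number 5. Between libraries of different numbers they ran from -0.469 (GST library 3, GST-PTR1 library 4) to 0.365 (GST library 3, GST-PTR1 library 2). Whether libraries of the 2 treatments shared a batch was not tested. Fits in edgeR were also made of the 4 libraries numbered 4 or 5, chosen after seeing the data. CXCR4 passed there with the number as a block (0.43) and without it (0.44), and 5 receptors were higher in both. Over all genes, the block gave 1603 higher and 1715 lower, against 1790 and 1848 without it.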

Other observations

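Genes that turn receptor signals into movement changed in a few of their members. Of 27 migration effectors matched, 25 were tested, 6 were higher and 3 lower with GST-PTR1, beside 9.15% and 11.4% of all genes tested, with a median log2 fold change of -0.10. VAV1, a signal protein of lymphocyte activation, measured 14.1, 14.4 and 13.7 RPKM with GST and 44.3, 47.0 and 45.2 RPKM with GST-PTR1 (log2 fold change 1.69, SE 0.09, adjusted p = 4.81e-07 by edgeR). PIK3CD, the catalytic subunit of the leukocyte phosphoinositide 3-kinase, went from 1.45 ± 0.0819 to 8.10 ± 1.05 RPKM (SD, n = 3; log2 fold change 2.48, SE 0.13, adjusted p = 3.25e-07 by edgeR). In both genes the 2 treatments did not overlap. PLCB2, a phospholipase downstream of G proteins, fell from 28, 47 and 28 counts to 10, 26 and 23 (log2 fold change -1.31, SE 0.29, adjusted p = 0.00880 by edgeR). Its call was lost without GST library 4 (-1.18, adjusted p = 0.0517 by edgeR) and with thinned counts (-1.13, adjusted p = 0.0514 by edgeR). The number of higher genes in the list was 3 without GST library 4 or without GST-PTR1 library 5.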
